A study of Mus musculus with 16 samples.

Results

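The genes described here are 8 members of the endocannabinoid system, chosen by name: the receptor Cnr1, its interacting protein Cnrip1, and the enzymes Dagla, Daglb, Napepld, Mgll, Faah and Abhd6. Each was a single row among the 55450 annotated genes of the count table, and each reached 10 reads in 16 of 16 libraries, so all 8 were among the 19363 genes that passed the filter on low counts. RNA was sequenced from the striatum of individual male C57Bl/6 mice (substrain J by the study's methods) aged 14 weeks, 4 for each combination of genotype (wild-type or R6/1) and performance (good or poor). R6/1 mice carry a transgene with exon 1 of the human huntingtin gene and an expanded CAG tract, and the controls were their wild-type littermates, which lack it. Good and poor name the mice that scored best and worst within their genotype across behavioural traits such as rotarod latency, feet clasping and body weight. The mice received no treatment. The comparisons ask whether the striatal transcripts of this system differed between R6/1 and wild-type mice, and between good and poor performers.

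Endocannabinoids are lipid messengers that a postsynaptic neuron makes on demand and that travel backwards across the synapse. In the striatum, the projection neurons (medium spiny neurons) are rich in the CB1 receptor, a G protein-coupled receptor encoded by Cnr1, on axon terminals where it lowers transmitter release. The ligand 2-AG is made by diacylglycerol lipases and removed mainly by monoacylglycerol lipase, whereas anandamide is made by routes that include the phospholipase encoded by Napepld and is hydrolysed by the fatty acid amide hydrolase Faah. Loss of CB1 receptor from the basal ganglia is a long-known feature of Huntington disease.

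The 16 libraries held between 16155356 and 24897354 counted reads. Libraries with running numbers 1 to 8 in the file header held 16155356 to 20250680 reads and included all 4 R6/1 good mice but 1 of the R6/1 poor mice, whereas libraries 9 to 16 held 21529188 to 24897354 reads. Running number and R6/1 performance were therefore largely confounded. The label striatum was checked against 10 medium spiny neuron genes (among them Drd1, Drd2, Penk and Ppp1r1b), none of which was at 0 in any group. Their summed level was 6736 to 10762 CPM (TMM-scaled counts per 1000000 reads) in wild-type mice and 1772 to 4401 CPM in R6/1 mice. By the edgeR test described below, 10 of 10 were lower in R6/1 mice, beside 17% of all genes over all R6/1 mice. The study had already reported the 4 named genes as lowered in these mice, so this count is no separate result. Of 12 marker lists, 5 had a lower sum in every R6/1 than in every wild-type mouse: medium spiny neurons, astrocytes (5220 to 6170 CPM in wild-type, 3246 to 3961 CPM in R6/1 mice), GABAergic interneurons (376 to 466 and 200 to 347 CPM), microglia (452 to 561 and 313 to 424 CPM) and endothelial cells (318 to 374 and 218 to 277 CPM). Lateral septal markers summed to 187 and 130 CPM in R6/1 poor mice 1 and 3, against at most 76.2 CPM in the other 14 mice. The same 2 mice were also the highest in summed hypothalamic markers, at 36.1 and 22.7 CPM, against at most 16.2 CPM in the other 14. The genotype calls of the 8 genes without these 2 mice are therefore also given. The summed level of 8 markers of cortical projection neurons (among them Slc17a7, Neurod6, Neurod2, Tbr1 and Cux2) ranged from 25.5 to 817 CPM among the 16 mice, with a wide range in each group. In bulk tissue, fewer cells of a type and less RNA per cell cannot be told apart.

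The promoter sequences of the genes called different between genotypes are given first. RefSeq windows of 300 bases on GRCm38.p6 (250 before to 50 after a transcript start) were found for 7 of the 8 genes, 11 windows in all; Dagla was not among them. Letters in capitals mark matches, on either strand, to the GC box (GGGCGG), the E-box (CACGTG), the CCAAT box (CCAAT), the TATA box (TATAAA) and the first letters of the cAMP response element (TGACG). Cnr1 has 3 windows on the plus strand, at chr4:33924014-33924313, chr4:33924394-33924693 and chr4:33926130-33926429. Those of Mgll (the more upstream of 2), Cnrip1 and Napepld lie at chr6:88724162-88724461 (plus strand), chr11:17051609-17051908 (plus strand) and chr5:21701573-21701872 (minus strand).
Cnr1 window 1: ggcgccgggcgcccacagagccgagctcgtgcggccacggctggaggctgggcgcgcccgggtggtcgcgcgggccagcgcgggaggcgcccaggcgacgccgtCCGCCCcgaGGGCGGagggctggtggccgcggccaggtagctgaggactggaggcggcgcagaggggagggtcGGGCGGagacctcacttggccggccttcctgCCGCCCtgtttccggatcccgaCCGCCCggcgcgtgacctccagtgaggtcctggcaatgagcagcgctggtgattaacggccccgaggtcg
Cnr1 window 2: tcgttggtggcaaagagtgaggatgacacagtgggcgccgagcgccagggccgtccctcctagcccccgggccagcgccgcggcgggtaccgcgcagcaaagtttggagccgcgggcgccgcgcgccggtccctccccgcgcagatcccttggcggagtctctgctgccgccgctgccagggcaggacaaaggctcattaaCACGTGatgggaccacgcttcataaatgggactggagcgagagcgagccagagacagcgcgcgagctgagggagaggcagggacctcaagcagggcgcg
Cnr1 window 3: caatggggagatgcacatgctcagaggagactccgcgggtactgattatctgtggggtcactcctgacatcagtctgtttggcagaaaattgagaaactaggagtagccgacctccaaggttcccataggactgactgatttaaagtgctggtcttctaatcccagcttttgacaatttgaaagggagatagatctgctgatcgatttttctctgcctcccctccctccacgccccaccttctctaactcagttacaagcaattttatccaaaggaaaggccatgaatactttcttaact
Mgll window 1: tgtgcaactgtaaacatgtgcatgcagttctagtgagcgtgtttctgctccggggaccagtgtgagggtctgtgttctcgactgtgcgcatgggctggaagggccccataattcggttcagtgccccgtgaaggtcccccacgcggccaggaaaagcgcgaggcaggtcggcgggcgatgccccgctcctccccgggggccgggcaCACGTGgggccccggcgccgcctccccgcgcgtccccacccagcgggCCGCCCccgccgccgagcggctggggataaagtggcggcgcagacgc
Cnrip1: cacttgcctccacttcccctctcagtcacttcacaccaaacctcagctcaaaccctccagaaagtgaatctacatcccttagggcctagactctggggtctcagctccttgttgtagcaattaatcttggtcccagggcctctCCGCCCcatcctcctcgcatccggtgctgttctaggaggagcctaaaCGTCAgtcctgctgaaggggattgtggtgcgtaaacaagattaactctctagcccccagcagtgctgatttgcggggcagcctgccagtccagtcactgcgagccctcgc
Napepld: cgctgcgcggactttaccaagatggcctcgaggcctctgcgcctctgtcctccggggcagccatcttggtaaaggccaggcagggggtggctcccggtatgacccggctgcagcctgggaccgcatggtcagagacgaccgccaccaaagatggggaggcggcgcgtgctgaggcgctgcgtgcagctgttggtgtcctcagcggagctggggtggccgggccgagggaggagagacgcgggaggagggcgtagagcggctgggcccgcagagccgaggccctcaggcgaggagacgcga

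The 3 Cnr1 windows differed from each other in composition. The most upstream was 76.3% G+C with 40 CpG dinucleotides, above the G+C of 97.1% of the 32817 windows in the table, the second was 69% G+C with 33 CpG, and the most downstream was 46.3% G+C with 5 CpG (median of all windows 52.7% and 7 CpG). Window 1 held 5 GC boxes and window 2 held an E-box; 35.6% of all windows hold the GC box and 7.15% the E-box. The Mgll window shown also held an E-box and a GC box, at 70% G+C. The other Mgll window, not shown, held a GC box and a TGACG match. The Cnrip1 window was 56% G+C and held a GC box and a TGACG match (20.8% of all windows), and the Napepld window held none of the 5 motifs. No TATA box was found in any of the 11 windows (13.6% of all windows), and the CCAAT box, held by 37.4% of all windows, was found in 1 of the 11, the first of Abhd6. These are matches of letters and no measurement of binding, and their relation to the direction of change was not tested.

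Levels can be compared between the genes only per length. In the 8 wild-type mice, CPM per kilobase of annotated exon was highest for Cnr1 (55.0 ± 20.6, SD, n = 8), followed by Mgll (35.7 ± 5.16), Abhd6 (19.3 ± 2.58), Dagla (15.5 ± 2.03), Cnrip1 (8.63 ± 1.92), Faah (4.51 ± 1.52), Daglb (3.60 ± 0.43) and Napepld (2.23 ± 0.28). The ranges of Cnr1 and Mgll overlapped, as did those of Abhd6 and Dagla, of Cnrip1 and Faah, and of Faah and Daglb; the other neighbours in this order did not overlap. By this measure the main 2-AG genes Dagla and Mgll stood above the anandamide genes Napepld and Faah. The length joins the exons of all annotated transcripts, 7834 bases over 8 transcripts for Faah and 9567 over 4 for Daglb. Levels per length of the transcripts in use were not computed, and the order of the genes may differ by that measure. In the 8 R6/1 mice, Cnr1 stood below Mgll and Abhd6, at 16.5 ± 3.60 CPM per kilobase against 27.6 ± 4.96 and 18.1 ± 1.19, with ranges of Cnr1 and Abhd6 that overlapped, and Cnrip1 (12.5 ± 1.87) was listed above Dagla (10.5 ± 1.88), again with overlap. Exonic overlap with other genes was small for Cnrip1 (4.97% of its bases, with Plek on the opposite strand) and Mgll (3.29%, with an antisense gene), and covered 24.1% of Daglb, whose exons lie opposite Rac1. The kit marked strand, but whether reads were counted by strand is not stated in any source consulted, and the Daglb values may hold reads from Rac1.

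**Figure D1:**
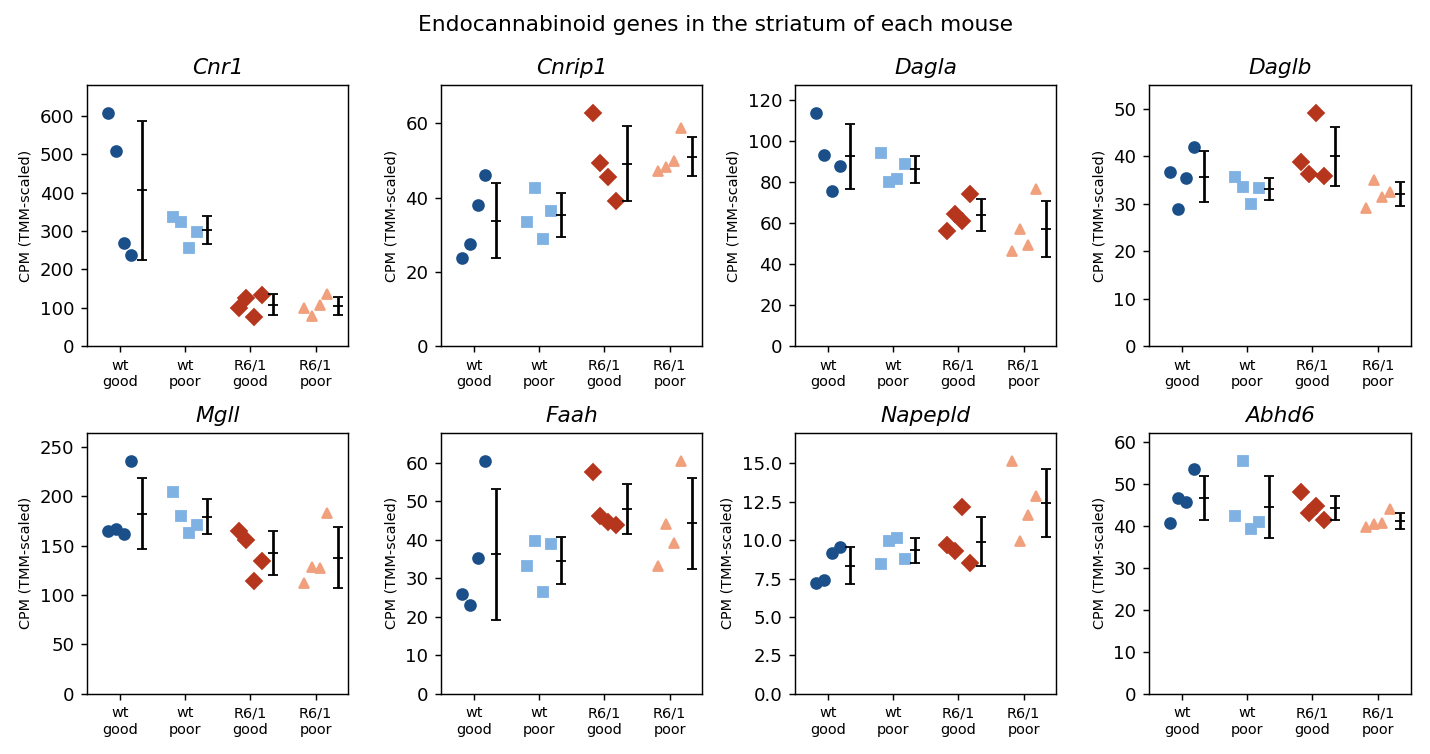
Level of each of the 8 genes (vertical axis, CPM after TMM scaling, from 0) in each mouse of the 4 groups (horizontal axis, 1 point per mouse), with the group mean and SD in black beside the points. The R6/1 points of Cnr1, 74.5 to 134 CPM, all lie below the wild-type points, 238 to 608 CPM; for the other 7 genes the genotypes overlap.

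Cnr1 was the member with the largest difference between genotypes. It lies at chr4:33924593-33948831 on the plus strand (GRCm38). Its level was 608, 509, 270 and 238 CPM in the wild-type good mice and 336, 324, 255 and 296 CPM in the wild-type poor mice. It was 99.7, 126, 74.5 and 133 CPM in the R6/1 good mice and 98.7, 78.4, 106 and 134 CPM in the R6/1 poor mice. Every R6/1 mouse was below every wild-type mouse, a separation held by 1 of the 8 genes; over all genes tested, 9.07% did not overlap, 5.03% with R6/1 below wild-type and 4.05% with R6/1 above. By the quasi-likelihood test of edgeR, adjusted by Benjamini-Hochberg over all genes tested, Cnr1 was lower in R6/1 good mice than in the 8 wild-type mice by a log2 fold change of -1.71 ± 0.29 (SE; adjusted p = 0.00152), and in R6/1 poor mice by -1.76 ± 0.28 (adjusted p = 0.000668). Over all 8 R6/1 and 8 wild-type mice it was -1.74 ± 0.20 (edgeR, adjusted p = 9.72e-06), 0.30 times the wild-type level. The R6/1 good and R6/1 poor comparisons share the 8 wild-type controls. Among wild-type mice, good mice 1 and 2 stood above the rest, and the sample descriptions of these 2 differ only by an added letter. The wild-type poor mice were at -0.42 ± 0.30 relative to good (edgeR, adjusted p = 1).

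Cnrip1 encodes a cytoplasmic protein that binds the tail of the CB1 receptor and lies at chr11:17051586-17079371. It was 23.7, 27.5, 38.0 and 46.0 CPM in wild-type good mice and 33.3, 42.7, 28.8 and 36.4 CPM in wild-type poor mice. It was 62.8, 49.3, 45.5 and 39.0 CPM in R6/1 good mice and 47.3, 48.3, 49.9 and 58.7 CPM in R6/1 poor mice. R6/1 mice were mostly above wild-type mice, with overlap between the lowest R6/1 good mice and the highest wild-type mice. The log2 fold change was 0.51 ± 0.17 in R6/1 good mice (edgeR, adjusted p = 0.0416), 0.56 ± 0.15 in R6/1 poor mice (adjusted p = 0.0120) and 0.54 ± 0.13 over all R6/1 mice (adjusted p = 0.00310). In R6/1 good mice the call was lost without any 1 of wild-type good mouse 2, wild-type poor mouse 1, 3 or 4, or R6/1 good mouse 1, 2 or 3, with log2 fold changes between 0.37 and 0.54 and edgeR adjusted p between 0.0561 and 0.159. It was also lost with the split of the libraries (1 to 8 and 9 to 16) as a covariate (0.52, edgeR adjusted p = 0.137), against wild-type good mice alone (0.54, 0.131), without a filter on low counts (0.51, 0.133) and within libraries 1 to 8 (0.51, 0.201). The receptor and its partner therefore moved apart: the Cnrip1 to Cnr1 ratio per length was 0.063 to 0.31 in the 8 wild-type mice and 0.47 to 1.01 in the 8 R6/1 mice, given as a description.

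Of the genes that make 2-AG, Dagla was lower in R6/1 mice and Daglb did not pass the test. Dagla encodes the diacylglycerol lipase that supplies most 2-AG at adult synapses (chr19:10245265-10304877, minus strand). It was 113, 93.1, 75.7 and 87.4 CPM in wild-type good mice and 94.0, 80.1, 81.6 and 88.6 CPM in wild-type poor mice. It was 55.8, 64.5, 60.8 and 73.9 CPM in R6/1 good mice and 46.0, 57.1, 49.0 and 76.3 CPM in R6/1 poor mice. The groups met at 1 point only: R6/1 poor mouse 4, at 76.3 CPM, was just above wild-type good mouse 3, at 75.7 CPM. The log2 fold change was -0.49 ± 0.10 in R6/1 good mice (edgeR, adjusted p = 0.00272), -0.64 ± 0.13 in R6/1 poor mice (adjusted p = 0.00260) and -0.56 ± 0.10 over all R6/1 mice (adjusted p = 0.000403). Daglb, the second diacylglycerol lipase, is prominent in microglia and peripheral tissue. Its group means were 35.7 ± 5.37 CPM in wild-type good, 33.1 ± 2.33 in wild-type poor, 40.0 ± 6.27 in R6/1 good and 32.0 ± 2.48 CPM in R6/1 poor mice (SD, n = 4 each), with 0.22 ± 0.10 in R6/1 good (edgeR, adjusted p = 0.130) and -0.10 ± 0.09 in R6/1 poor mice (adjusted p = 0.423). The Dagla to Daglb ratio per length ranged from 3.47 to 5.37 in wild-type and from 2.06 to 3.91 in R6/1 mice.

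Napepld encodes the phospholipase D that releases anandamide and related N-acylethanolamines from membrane precursors (chr5:21662901-21701396, minus strand). It was 7.20, 7.37, 9.15 and 9.57 CPM in wild-type good mice and 8.42, 9.96, 10.1 and 8.80 CPM in wild-type poor mice. It was 9.70, 9.27, 12.2 and 8.49 CPM in R6/1 good mice and 15.2, 9.94, 11.6 and 12.9 CPM in R6/1 poor mice. The R6/1 good mice lay mostly within the wild-type range and 3 of the R6/1 poor mice above it. Napepld was higher in R6/1 poor than in wild-type mice by 0.49 ± 0.12 on the log2 scale (edgeR, adjusted p = 0.00787), and in R6/1 good mice the value was 0.16 ± 0.12 (adjusted p = 0.342). The call in R6/1 poor mice was lost against wild-type poor mice alone (0.41, edgeR adjusted p = 0.0562), within libraries 1 to 8 (0.24, 0.603) and without R6/1 poor mice 1 and 3 (0.37, 0.147). Over all R6/1 mice it was higher by 0.34 ± 0.11 (edgeR, adjusted p = 0.0280), a call that was lost without wild-type good mouse 1 or 2, wild-type poor mouse 1, or R6/1 poor mouse 1 or 4 (0.26 to 0.32, adjusted p 0.0528 to 0.0642). Within libraries 1 to 8 the value was 0.23 (edgeR, adjusted p = 0.277), and without R6/1 poor mice 1 and 3 it was 0.24 (adjusted p = 0.113).

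The genes that remove 2-AG divided into Mgll, which was lower, and Abhd6, which did not pass the test. Mgll encodes monoacylglycerol lipase, the main 2-AG hydrolase of brain (chr6:88724412-88828360). It was 165, 167, 162 and 236 CPM in wild-type good mice and 204, 180, 163 and 171 CPM in wild-type poor mice. It was 165, 156, 115 and 135 CPM in R6/1 good mice and 112, 128, 128 and 183 CPM in R6/1 poor mice. R6/1 poor mouse 4 and R6/1 good mouse 1 were inside the wild-type range, and the remaining 6 R6/1 mice were below it. The log2 fold change was -0.34 ± 0.11 in R6/1 good mice (edgeR, adjusted p = 0.0401), -0.39 ± 0.13 in R6/1 poor mice (adjusted p = 0.0360) and -0.37 ± 0.10 over all R6/1 mice (adjusted p = 0.0109). Leaving out 1 library ended the call in R6/1 good mice (wild-type poor mouse 1 or 2, R6/1 good mouse 2, 3 or 4; -0.39 to -0.26, edgeR adjusted p 0.0523 to 0.128) and in R6/1 poor mice (wild-type poor mouse 1 or 2, R6/1 poor mouse 1, 2 or 3; -0.39 to -0.31, edgeR adjusted p 0.0509 to 0.132). Both calls were also lost against wild-type mice of the same performance (-0.36, edgeR adjusted p = 0.133, and -0.38, 0.0847). They were lost too without a filter on low counts (-0.35, edgeR adjusted p = 0.0687, and -0.39, 0.0774). The call in R6/1 good mice ended when all 4 groups entered 1 fit (-0.34, edgeR adjusted p = 0.077). That in R6/1 poor mice ended with the library split as a covariate (-0.37, edgeR adjusted p = 0.0523). Within libraries 9 to 16, whose 3 R6/1 mice are all poor performers, Mgll was at -0.26 (edgeR, adjusted p = 0.219). Abhd6, a membrane hydrolase that acts on the same lipid at postsynaptic sites, had group means from 41.3 ± 1.90 CPM in R6/1 poor to 46.7 ± 5.32 CPM in wild-type good mice and a log2 difference of -0.09 ± 0.07 over all R6/1 mice (edgeR, adjusted p = 0.343).

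Faah encodes the enzyme that hydrolyses anandamide (chr4:115967145-116017926, minus strand). It was 25.9, 23.0, 35.2 and 60.5 CPM in wild-type good mice and 33.2, 39.7, 26.4 and 38.9 CPM in wild-type poor mice. It was 57.7, 46.1, 44.6 and 43.8 CPM in R6/1 good mice and 33.2, 44.1, 39.1 and 60.5 CPM in R6/1 poor mice. Wild-type good mouse 4 was as high as the highest R6/1 mouse, and the other 7 wild-type mice were below every R6/1 good mouse. The log2 fold change was 0.44 ± 0.22 in R6/1 good mice (edgeR, adjusted p = 0.158), 0.32 ± 0.24 in R6/1 poor mice (adjusted p = 0.331) and 0.39 ± 0.18 over all R6/1 mice (adjusted p = 0.101). Without wild-type good mouse 4 it was 0.60 in R6/1 good mice (edgeR, adjusted p = 0.0104) and 0.53 over all R6/1 mice (adjusted p = 0.00798), so that 1 library decided whether Faah was called. Within libraries 1 to 8 it was 0.24 (edgeR, adjusted p = 0.551) and within libraries 9 to 16 it was 0.44 (adjusted p = 0.233).

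**Figure D2:**
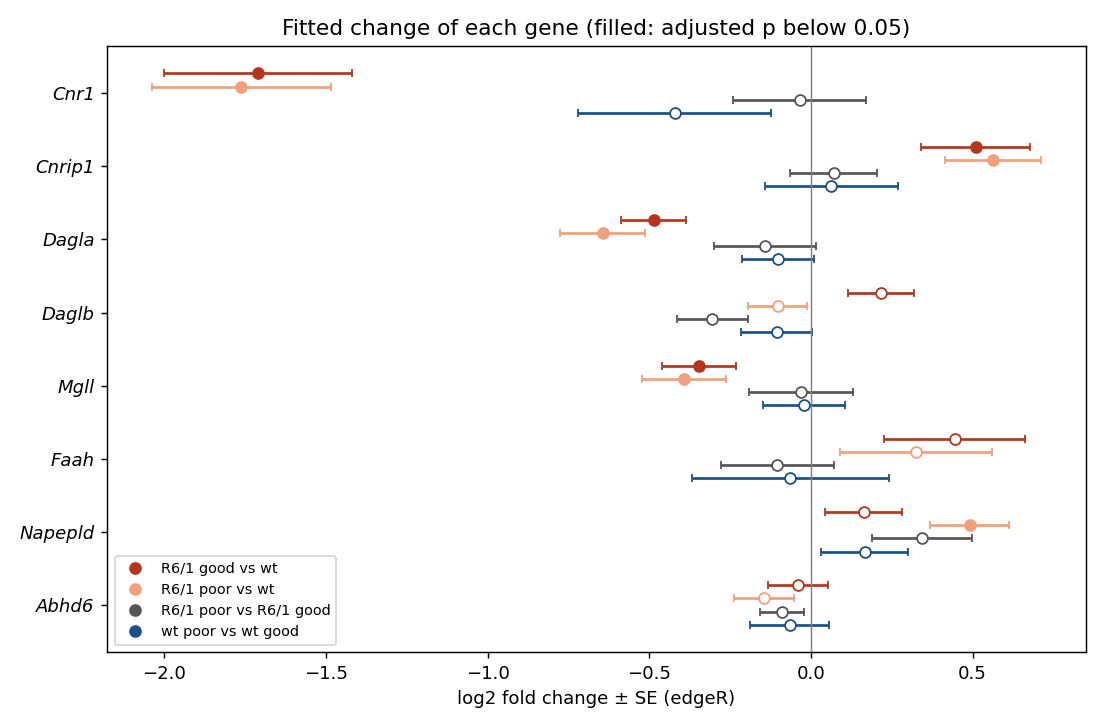
Log2 fold change (horizontal axis) with its SE for the 8 genes (vertical axis) in 4 comparisons, marked by colour; filled points had an edgeR adjusted p below 0.05. Filled points occur in the R6/1 against wild-type comparisons and in no comparison of poor with good mice, and Cnr1 lies far to the left at -1.71 and -1.76.

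In R6/1 good mice against wild-type mice, 1 of the 8 genes was higher and 3 were lower, where 24.6% of the 19363 genes tested were called, 12.1% higher and 12.4% lower. In R6/1 poor mice 2 were higher and 3 lower, against 28.5% of all genes (13.5% higher, 14.9% lower). Over all R6/1 mice 2 were higher and 3 lower, against 34.2% (17.2% higher, 17% lower). The median log2 fold change of the 8 genes over all R6/1 mice was -0.01, beside 0.02 for all genes tested. The genes therefore shared no direction: the receptor and the 2-AG lipases Dagla and Mgll were lower, and Cnrip1 and Napepld were higher. Within libraries 1 to 8, where 5 R6/1 and 3 wild-type mice could be compared, Cnr1 was at -1.96 (edgeR, adjusted p = 0.00530), Dagla at -0.67 (adjusted p = 0.00205), Mgll at -0.54 (adjusted p = 0.0191) and Cnrip1 at 0.50 (adjusted p = 0.135). Within libraries 9 to 16, with 3 R6/1 and 5 wild-type mice, Cnr1 was at -1.55 (edgeR, adjusted p = 0.00437), Dagla at -0.55 (adjusted p = 0.0393), Cnrip1 at 0.58 (adjusted p = 0.0222) and Napepld at 0.54 (adjusted p = 0.0200). With libraries 1 to 8 alone, which leaves 1 R6/1 poor mouse, the R6/1 poor values of Cnr1 and Dagla were -2.33 (edgeR, adjusted p = 0.213) and -0.79 (adjusted p = 0.0733).

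R6/1 poor mice 1 and 3, which stood apart in lateral septal and hypothalamic markers, held the lowest Dagla levels and the highest Napepld level of the series. Without them, 1 of the 8 genes was called in the R6/1 poor comparison, where 9.3% of all genes were called. Cnr1 was at -1.73 (edgeR, adjusted p = 0.0289), Cnrip1 at 0.63 (adjusted p = 0.0711), Dagla at -0.42 (adjusted p = 0.0853) and Mgll at -0.22 (adjusted p = 0.433). Over all R6/1 mice, 4 of the 8 genes were called without these 2 mice, beside 29.2% of all genes: Cnr1 at -1.72 (edgeR, adjusted p = 0.000162), Cnrip1 at 0.55 (adjusted p = 0.00897), Dagla at -0.46 (adjusted p = 0.00122) and Mgll at -0.30 (adjusted p = 0.0460). This setting was chosen after the values had been seen.

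None of the 8 genes was called between the R6/1 groups, between wild-type poor and good mice, or in the interaction of genotype and performance; edgeR called 0% of all genes in each of these 3 comparisons. DESeq2 called 356, 0 and 1 genes in them, none of them a member. At an unadjusted p under 0.05, edgeR listed 3000 genes between R6/1 poor and good mice, 472 between the wild-type groups and 1118 in the interaction. In the first of these the 2 members listed were Daglb, at -0.31 ± 0.11 (edgeR, unadjusted p = 0.0184, adjusted p = 0.269), and Napepld, at 0.34 ± 0.15 (unadjusted p = 0.0499, adjusted p = 0.322). Daglb was 38.8, 36.2, 49.2 and 35.8 CPM in R6/1 good mice and 29.1, 35.1, 31.5 and 32.4 CPM in R6/1 poor mice. Without R6/1 poor mice 1 and 3, Daglb was at -0.23 and no member had an unadjusted p under 0.05. With the split of libraries 1 to 8 and 9 to 16 as a covariate, no member was listed at an unadjusted p under 0.05, and within libraries 1 to 8, with 1 R6/1 poor mouse, Napepld was at 0.017 (edgeR, adjusted p = 1). Cnr1 was at -0.03 ± 0.21 between R6/1 poor and good mice (edgeR, adjusted p = 0.952).

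Mice of the same group differed widely in several of these genes, compared with genes of like level. The SD of log2 CPM within groups, pooled over the 4 groups, was 0.43 for Cnr1, above 98.9% of the 1126 genes within 0.5 log2 units of its level. It was 0.40 for Faah, above 97.4% of 2727 such genes. The spread of both was largest in wild-type good mice. As a percentage of the mean CPM, the SD of Cnr1 was 44.5% there and 11.9% to 24.6% in the other groups. That of Faah was 47.1% there and 13.5% to 26.5% in the other groups. Cnrip1, Mgll and Dagla were above 93.6%, 91.7% and 90.6% of genes of like level, whereas Daglb, Abhd6 and Napepld were above 73.2%, 66.5% and 55.9%.

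Some of this spread ran together with the levels of other cell types' markers. After subtraction of the group means, log2 CPM over the 16 mice correlated with the summed cortical projection neuron markers at Pearson r = 0.93 for Cnrip1, 0.83 for Faah, 0.76 for Mgll and 0.73 for Abhd6, and at -0.33 for Cnr1 and -0.12 for Dagla. These points share a library, its depth and its dissection, and 4.33% of all genes tested had r above 0.7. The cortical sum was 25.5, 116, 273 and 733 CPM in wild-type good mice 1 to 4 and 286, 455, 94.4 and 317 CPM in wild-type poor mice 1 to 4. It was 518, 232, 103 and 39.7 CPM in R6/1 good and 66.6, 150, 209 and 817 CPM in R6/1 poor mice. The highest mouse of the wild-type good, R6/1 good and R6/1 poor groups in cortical markers was also the highest of its group in Cnrip1, Faah and Mgll. No cortical marker was called between genotypes over all mice.

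The genotype values were therefore recomputed with the log2 cortical sum as a covariate, and without the mouse of each group with the highest sum. With the covariate, Cnrip1 was higher in all R6/1 mice by 0.58 on the log2 scale (edgeR, adjusted p = 5.68e-07) and Faah was higher by 0.45 (adjusted p = 0.00365), and in R6/1 good mice Faah was higher by 0.56 (adjusted p = 0.00584). Without those 4 mice, Faah was higher by 0.46 over all R6/1 mice (edgeR, adjusted p = 0.0140) and by 0.56 in R6/1 good mice (adjusted p = 0.0236). In R6/1 poor mice, the Faah value with the covariate was 0.33 (adjusted p = 0.0549). The number of members called over all R6/1 mice was 6 in both of these settings, in which 36.3% (covariate) and 28.2% (without the 4 mice) of all genes were called. Both were chosen after the values had been seen.

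**Figure D3:**
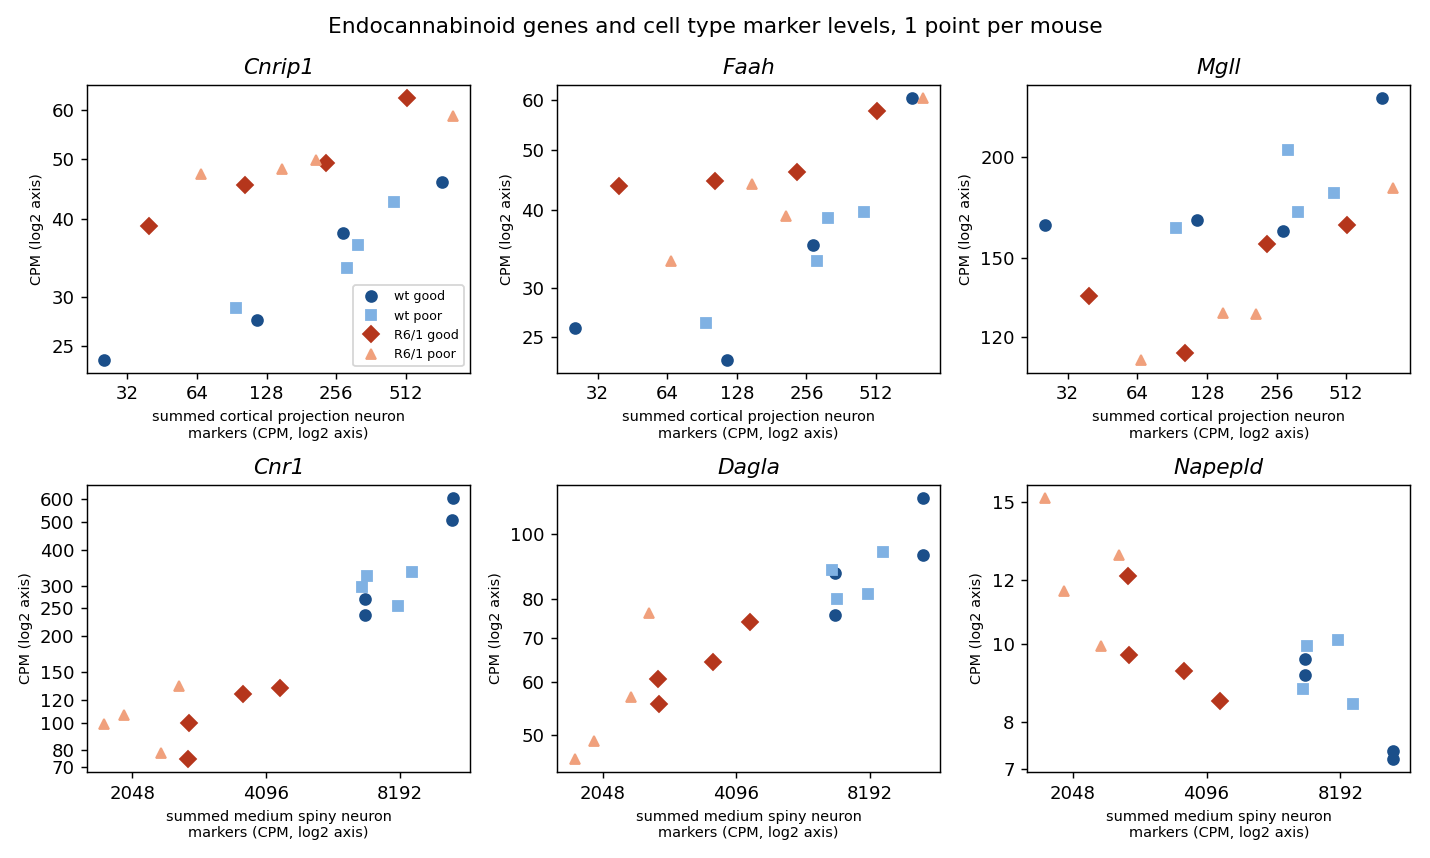
Each point is 1 mouse, with the 4 groups marked by colour and shape; the horizontal axis is the summed CPM of cortical projection neuron markers (upper row: Cnrip1, Faah, Mgll) or of medium spiny neuron markers (lower row: Cnr1, Dagla, Napepld), the vertical axis is the CPM of the named gene, and all axes are log2. In the upper row the R6/1 points of Cnrip1 lie above the wild-type points of similar cortical level, and in the lower row Cnr1 and Dagla rise and Napepld falls along the medium spiny neuron sum.

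Cnr1 and Dagla followed the medium spiny neuron markers instead. After subtraction of the group means, their r with the summed medium spiny neuron markers was 0.75 and 0.79 over the 16 mice, and that of Napepld was -0.71 and of Cnrip1 -0.65; 4.02% of all genes tested had r above 0.7. The 2 wild-type good mice with the highest Cnr1, 608 and 509 CPM, had the highest medium spiny neuron sums, 10762 and 10744 CPM. The mice with 270 and 238 CPM had sums of 6820 and 6824 CPM. The sums of the R6/1 groups did not overlap, at 2729 to 4401 CPM in good and 1772 to 2603 CPM in poor mice, whereas their Cnr1 levels overlapped. The lowest sums, 1772 and 1958 CPM, were those of R6/1 poor mice 1 and 3, which stood apart in lateral septal and hypothalamic markers. All R6/1 good mice were in libraries 1 to 8. The part of these marker levels in the genotype differences was not tested. Among the 12 marker lists, Mgll had its strongest r with cholinergic interneuron markers, -0.90. Faah, Cnrip1 and Abhd6 were at -0.78, -0.64 and -0.58 with the same list, and Cnr1 was at 0.06. The share of all genes with such an r was not computed.

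Among themselves the members formed 2 loose groups within the mouse groups. After subtraction of group means, Cnrip1 correlated with Faah at r = 0.87 and with Abhd6 at 0.80, and Mgll with Faah at 0.76. Cnr1 correlated with Dagla at 0.62. Cnr1 ran against Napepld and Daglb, both at -0.54, and against Cnrip1 at -0.49. These are descriptions over 16 mice that share the libraries.

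The genes most like Cnr1 in log2 CPM over the 16 mice, among 14444 genes compared, were Kazn, Oprd1 (the delta opioid receptor), Lrrc10b, Gpr158 and Hipk4, with r = 0.97 for each, and the most opposite were Gm49602, Rad18 and Dzip1 at -0.96. These values hold the genotype difference, so the direction of the 5 most alike followed from how they were picked and is no separate result. Their log2 fold changes over all R6/1 mice ranged from Lrrc10b at -2.24 ± 0.29 and Hipk4 at -2.22 ± 0.18 to Gpr158 at -0.71 ± 0.08 (edgeR). After subtraction of group means, the most alike were Tmem208, Mme, Bag5, Lrrc10b and Rgs4 (r from 0.91 to 0.92), and the most opposite were Klhl14, Epb41l4b and Sh3bp4 (-0.91 to -0.89). Lrrc10b was in both lists. Rgs4, a regulator of G protein signalling, was lower in all R6/1 mice (-1.63 ± 0.21 on the log2 scale, edgeR, adjusted p = 2.28e-05), whereas Tmem208 was at -0.02 ± 0.06 (adjusted p = 0.810).

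Beyond the 8 genes, 35 of 39 listed genes of the pathway passed the filter, of which 6 were higher and 11 lower over all R6/1 mice (median log2 fold change -0.10, beside 0.02 for all genes), where 17.2% of all genes were higher and 17% lower. In R6/1 good mice 2 were higher and 9 lower (12.1% and 12.4% of all genes), and in R6/1 poor mice 6 were higher and 11 lower (13.5% and 14.9%). None was called in the comparisons of performance. The list of receptors and G proteins that drive 2-AG synthesis had 4 lower and 1 higher of 7, beside 34.2% of all genes called in either direction. Grm5, a metabotropic glutamate receptor that couples to phospholipase C, was lower by 0.57 ± 0.07 on the log2 scale (edgeR, adjusted p = 7.32e-06). Homer1, the gene of a scaffold that ties this receptor to its partners at the synapse, was at -1.45 ± 0.20 (adjusted p = 4.73e-05). It was 162 to 440 CPM in wild-type and 65.7 to 133 CPM in R6/1 mice, without overlap. Counts are per gene, so the transcript forms of Homer1 were not told apart. Gnaq, the G protein subunit between receptor and phospholipase, was higher by 0.19 ± 0.05 (edgeR, adjusted p = 0.00383), a call that was lost within libraries 1 to 8 (0.17, adjusted p = 0.0813).

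The ligand synthesis list had 3 lower and 1 higher of 11, a share near the 34.2% called over all genes. Of the phospholipases C, which make the diacylglycerol used by Dagla, those called over all R6/1 mice were lower. These were Plcb1 at -0.73 ± 0.10 (edgeR, adjusted p = 3.59e-05) and Plcb3 at -0.44 ± 0.06 (adjusted p = 1.65e-05), both without overlap between genotypes. Plcb4, named after its values were seen, was at 0.41 ± 0.23 over all R6/1 mice (edgeR, adjusted p = 0.192). It was at 0.02 ± 0.23 in R6/1 good mice (edgeR, adjusted p = 0.965) and higher in R6/1 poor mice by 0.72 ± 0.22 (adjusted p = 0.0261). Plcb4 was not recomputed without R6/1 poor mice 1 and 3. Inpp5d was at -0.33 ± 0.09 (edgeR, adjusted p = 0.00703), and Gdpd1, a lysophospholipase D, was higher by 0.24 ± 0.06 (adjusted p = 0.00408). In the list of ligand breakdown and transport, 2 of 8 tested were lower and 1 was higher, again near the 34.2% of all genes. Fabp5, which carries anandamide in the cytosol, was at -0.25 ± 0.05 (edgeR, adjusted p = 0.00104). Within libraries 9 to 16, the calls of Fabp5 (-0.25, edgeR adjusted p = 0.0636) and Inpp5d (-0.29, 0.0979) were lost.

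In the list of receptor coupling and trafficking, 3 of 6 were higher and 1 was lower, beside 17.2% and 17% of all genes. Gprasp1, which sorts internalised CB1 receptor to lysosomes, was 552 to 766 CPM in wild-type and 851 to 1215 CPM in R6/1 mice, higher without overlap by 0.60 ± 0.08 on the log2 scale (edgeR, adjusted p = 3.24e-05). Gnao1, a G protein subunit through which CB1 signals, was lower by 0.38 ± 0.07 (adjusted p = 0.000591). The other G protein subunits of this list, named after their values were seen, did not share this direction. Gnai1 was higher by 0.25 ± 0.09 (edgeR, adjusted p = 0.0354) and Gnai2 by 0.16 ± 0.05 (adjusted p = 0.0205), and Gnai3 was at 0.07 ± 0.06 (adjusted p = 0.414). They were not recomputed in other settings. Of the 6 other receptors of these lipids, 3 were tested and 1 was called, beside 34.2% of all genes. Gpr55, a receptor that responds to lysophosphatidylinositol and some cannabinoids, was 4.62 to 6.56 CPM in wild-type and 1.78 to 2.70 CPM in R6/1 mice, without overlap, at -1.21 ± 0.11 (edgeR, adjusted p = 5.92e-07). Cnr2, the CB2 receptor of immune cells, was 0.41 to 1.04 CPM over all mice, at -0.06 ± 0.20 (edgeR, adjusted p = 0.854), and its direction turned in 4 settings (0.02 to 0.06). Ppara was at -0.13 ± 0.12 (adjusted p = 0.437). Gpr18, Gpr119 and Trpv1 did not pass the filter, at no more than 0.25 CPM in any mouse, where differences were not detectable at this depth.

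**Figure D4:**
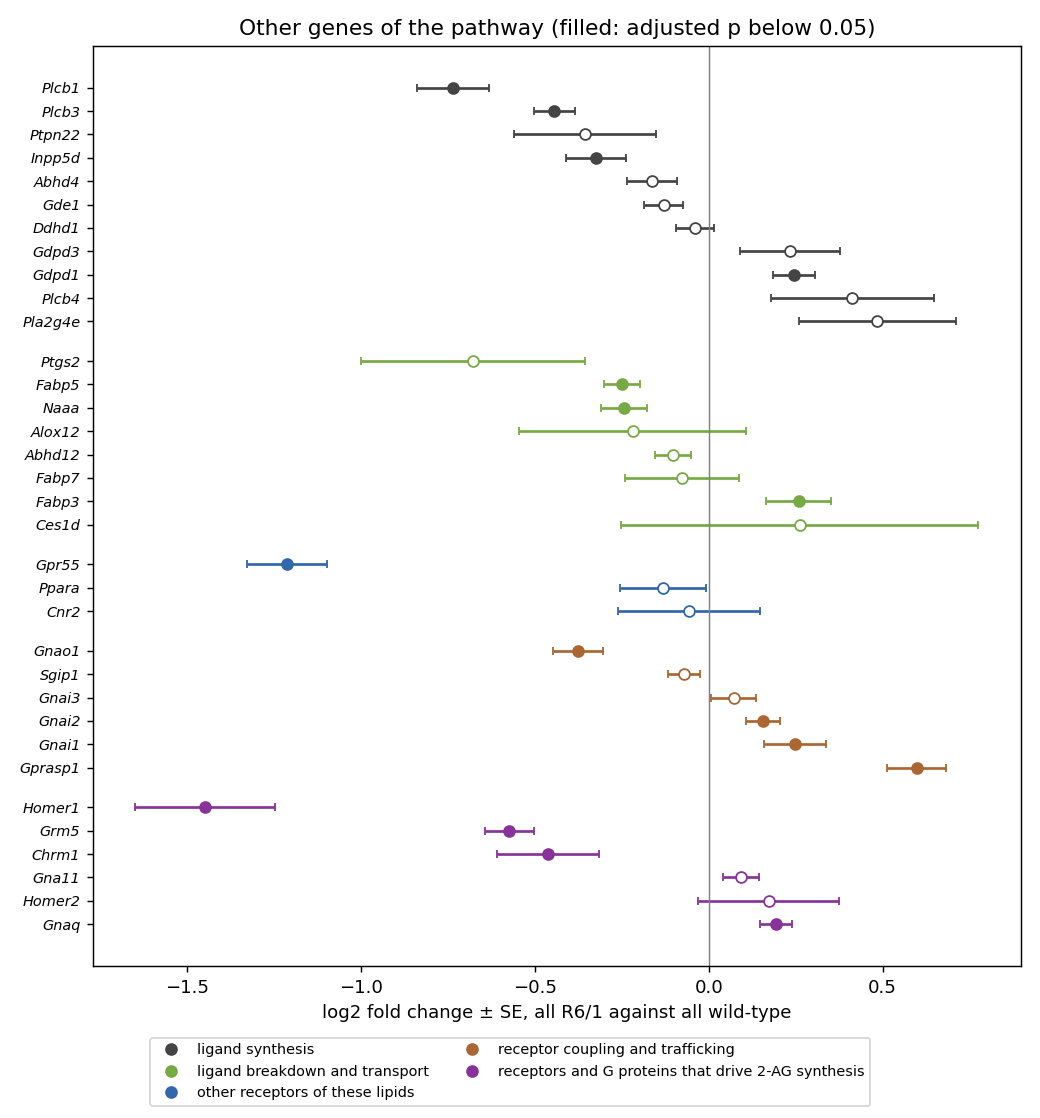
Log2 fold change with its SE over all R6/1 against all wild-type mice (horizontal axis) for 34 of the 35 other pathway genes tested (vertical axis), coloured by list; filled points had an edgeR adjusted p below 0.05. Homer1 (-1.45) and Gpr55 (-1.21) lie farthest to the left and Gprasp1 (0.60) is the highest called gene.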

How the data were processed

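Striatal mRNA of 16 mice was measured by RNA-seq, 1 library per mouse, in 4 groups of 4 given by the labels. The sample descriptions of wild-type good mice 1 and 2 differ only by an added letter b. What this letter marks is not stated in any source consulted, and the 2 were treated as separate mice. The authors used a stranded mRNA kit and paired-end sequencing and mapped reads to GRCm38 with TopHat 1.0.1, and CASAVA and Bowtie are named in the submitters' processing notes. The deposited table holds whole-number counts per gene, not normalized, for 55450 GENCODE genes; the counter is not given in the sources used here. All gene identifiers were matched to symbols, and 13 of 13 mitochondrial mRNAs were at 0 in every library.

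The filter kept the 19363 genes that reached 10 counts in 4 or more libraries. Counts were scaled by TMM in edgeR 4.0.16 (R 4.3.3), and CPM are counts per 1000000 reads of the scaled library. Fold changes, SE and p-values come from edgeR's robust quasi-likelihood test, adjusted by Benjamini-Hochberg over all genes kept, with a threshold of 0.05; only the groups compared entered each fit, and all wild-type mice served as controls of each R6/1 group, as in the study. log2 CPM used a prior count of 2. The test was also run on simulated counts, drawn independently for each gene. These held no differences shared within a library, such as those in dissection or library order, so that run cannot show how the test behaves under them. DESeq2 1.42.0, other scaling and filters, libraries 1 to 8 against 9 to 16 by running number (as a 2-level covariate or each alone), same-performance controls and leaving out each mouse were alternatives. The study used DESeq2.

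Named genes were the 8 members, the 12 other pathway genes with the smallest p over all R6/1 mice, 6 other receptors, and the genes most and least like Cnr1 (mean log2 CPM of at least 1). Plcb4, Gnai1, Gnai2 and Gnai3 were named in addition, after their values were seen. Of the listed genes, 1 pathway gene and 1 cell type marker entered the counts and sums but are not reported here by name. The members and lists were chosen with earlier results of these data known. Replicates differed beyond sampling noise and none was merged with another. The labels number the mice of each group, and nothing states that same-numbered mice share a litter or day. Exon lengths came from GENCODE on GRCm38, and promoters from RefSeq on GRCm38.p6.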

Additional observations from a re-analysis of the deposited data

Results flagged for a closer look

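In 3 of 84 groups of 4 mice checked among the genes tested (by Dixon's test), 1 mouse stood apart from the other 3; chance flags about 1 in 20 such groups. Mgll was 236 CPM in wild-type good mouse 4, against 162 to 167 CPM in the other 3. Faah was 57.7 CPM in R6/1 good mouse 1, against 43.8 to 46.1 CPM. Both mice had the highest summed cortical projection neuron markers of their group. Plcb3 was 23.2 CPM in wild-type poor mouse 2, against 26.5 to 27.0 CPM. None of the members or pathway genes checked moved in opposite ways in every mouse of 2 groups under the same contrast.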

How the results depend on the processing

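Of the results on single genes, 1610 recomputed values kept their direction and their side of the threshold, 53 lost a call, 10 gained one and 50 turned direction; the cause was not tested. The number of members called in R6/1 good mice (4 in the report) was 2 without a filter on low counts, where more genes were tested and 9.73% of them were called, 2 against wild-type good mice alone (13.9% of all genes called), and 2 to 5 when each mouse was left out (17.8% to 24.7%). In R6/1 poor mice (5) it was 0 with libraries 1 to 8 alone, which leaves 1 R6/1 poor mouse and where 2.3% of all genes were called, 3 against wild-type poor mice alone (19.3%), and 1 without R6/1 poor mice 1 and 3 (9.3%). Over all R6/1 mice (5) it was 3 with libraries 1 to 8 alone (22.6%). R6/1 good mice could not be compared with wild-type or R6/1 poor mice within libraries 9 to 16, which hold none. The replicate numbers did not pair the mice: deviations of same-numbered mice correlated at -0.35 to 0.23. With a replicate block the members called were 3, 5 and 5 in the 3 genotype comparisons and 0 in the others, and Cnrip1 in R6/1 good mice was 0.52 (edgeR, adjusted p = 0.0864).

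Most values that turned were small (log2), and the largest were those of Faah between wild-type groups. Over all R6/1 mice, Daglb was -0.01 with the library split (1 to 8, 9 to 16) as a covariate and -0.055 in libraries 9 to 16, Cnr2 was 0.061 in libraries 9 to 16 and 0.042 without the 4 mice highest in cortical markers, and Abhd6 in R6/1 good mice was 0.015 without them. For R6/1 poor against good mice, Cnrip1 was -0.0162 with that covariate and -0.0164 in libraries 1 to 8, and without R6/1 poor mice 1 and 3 Dagla was 0.082, Mgll 0.14 and Faah 0.14. For wild-type poor against good mice, Mgll was 0.047 and Faah 0.038 with that covariate, Faah was 0.015 with the replicate block, Cnrip1 was -0.067 and Mgll 0.024 in libraries 1 to 8, Daglb was 0.0075, Mgll 0.058 and Faah 0.26 in libraries 9 to 16, Cnrip1 was -0.046 with the cortical covariate, and Mgll was 0.12 and Faah 0.23 without the mice highest in cortical markers.

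Leaving out each mouse gave ranges through 0 for Abhd6 in R6/1 good mice (-0.083 to 0.005) and, over all R6/1 mice, for Daglb (-0.012 to 0.10), Cnr2 (-0.14 to 0.041), Tmem208 (-0.044 to 0.0021) and Sh3bp4 (-0.0037 to 0.067). So it did between R6/1 groups for Cnr1 (-0.18 to 0.082), Cnrip1 (-0.028 to 0.21), Mgll (-0.20 to 0.054) and Faah (-0.29 to 0.010), and between wild-type groups for Cnrip1 (-0.076 to 0.24), Dagla (-0.18 to 0.0085), Mgll (-0.088 to 0.12), Faah (-0.23 to 0.30) and Abhd6 (-0.19 to 0.0032). Counts behind the members ranged from 138 (Napepld) to 11647 (Cnr1) reads per library; counting error was not separated from the spread between mice.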
